A study of Mus musculus with 8 samples.

Results

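The interferon response and MHC class I genes are the receptors, sensors, transcription factors, effectors and antigen presentation genes through which cells detect infection and display it. The set was given as 42 gene names. Trim25, a ligase gene, was counted with the sensors because its product acts on an RNA sensor. A member was measured where a probe set of the array was listed with that gene alone, and the brightest such probe set over the 8 arrays was read. This held for 40 of the 42, among 18193 genes read in the same way. Isg15 and H2-T23, whose probe sets were listed with several genes, were not analysed here.

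Messenger RNA was measured on a mouse whole-genome oligonucleotide array in 3 wild-type cell types. Primary embryonic fibroblasts (MEF, 2 arrays) were grown in serum. Neural precursor cells (NPC, 3 arrays) were derived from ES cells in culture through embryoid bodies and selection in ITSFn medium, and were kept in FGF2 and EGF2. ES cells of the V6.5 line (3 arrays) were kept in serum and leukemia-inhibiting factor, first on irradiated MEFs and then on gelatin without feeders. No interferon or virus is named in the labels of any group, and a whole cell culture was lysed, so that fewer cells of a type and less RNA per cell cannot be told apart. Whether arrays within a group stem from independent cultures is not stated in the labels. The p-values therefore measure the spread between these arrays alone, which may be technical.

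Interferons are secreted when RNA sensors such as RIG-I and MDA5 meet foreign RNA. Type I interferon binds the receptor of Ifnar1 and Ifnar2, and the STAT and IRF factors that this activates bind short promoter elements of the effector genes. MHC class I molecules carry peptides to the cell surface, where T cells read them. They consist of a heavy chain and beta-2-microglobulin, and they are loaded through the immunoproteasome, the TAP transporter and tapasin. Pluripotent cells are known for a weak response to interferon together with constant expression of some of the effector genes.

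The element bound by the complex of STAT2 and IRF9 has the core GAAANNGAAA, and STAT dimers bind the element TTCNNNGAA, which reads the same on both strands. RefSeq promoter windows of GRCm38.p6, 250 bases before to 50 bases after each annotated start, were at hand for 36 of the 42 genes. GAAANNGAAA was present on either strand in 15 of the 36 (41.7%), against 3.99% of all 27025 genes with a window and 3.44% of all windows. TTCNNNGAA was present in 11 of the 36 (30.6%), against 9.55% of all genes and 8.3% of all windows. By role, GAAANNGAAA was found in 9 of 15 effector genes with a window, 2 of 3 sensor genes, 2 of 6 factor genes, 2 of 9 antigen presentation genes and 0 of 3 receptor genes. Of the members with a window, it was found in 6 of 20 that fell in NPC relative to ES cells, in 2 of 2 that rose and in 5 of 12 that were not called. A match is a description of letters and not of binding.

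The 250 bases before the start are given for 6 genes that hold GAAANNGAAA there, with its letters in capitals (TTTCNNTTTC where the match lies on the other strand). Bst2, Gbp2 and Oas1a are shown because they fell in NPC relative to ES cells, B2m and Irf2 because they rose, and Ifit1 because its signal was low in all groups.
Bst2 (chr8:71537473-71537722, minus strand): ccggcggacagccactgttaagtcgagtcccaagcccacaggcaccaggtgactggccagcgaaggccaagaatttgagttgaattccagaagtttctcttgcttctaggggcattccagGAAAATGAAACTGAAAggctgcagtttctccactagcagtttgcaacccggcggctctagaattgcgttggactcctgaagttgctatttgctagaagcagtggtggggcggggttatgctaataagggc
Gbp2 (chr3:142620413-142620662, plus strand): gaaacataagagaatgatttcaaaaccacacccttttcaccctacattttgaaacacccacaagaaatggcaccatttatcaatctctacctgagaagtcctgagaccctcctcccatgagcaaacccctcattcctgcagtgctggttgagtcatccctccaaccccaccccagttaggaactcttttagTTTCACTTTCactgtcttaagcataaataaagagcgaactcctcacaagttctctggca
Oas1a (chr5:120907526-120907775, minus strand): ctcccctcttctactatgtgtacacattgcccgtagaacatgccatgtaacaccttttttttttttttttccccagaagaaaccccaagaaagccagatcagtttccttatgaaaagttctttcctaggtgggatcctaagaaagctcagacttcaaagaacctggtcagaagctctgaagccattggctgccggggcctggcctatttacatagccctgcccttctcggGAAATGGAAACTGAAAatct
B2m (chr2:122147437-122147686, plus strand): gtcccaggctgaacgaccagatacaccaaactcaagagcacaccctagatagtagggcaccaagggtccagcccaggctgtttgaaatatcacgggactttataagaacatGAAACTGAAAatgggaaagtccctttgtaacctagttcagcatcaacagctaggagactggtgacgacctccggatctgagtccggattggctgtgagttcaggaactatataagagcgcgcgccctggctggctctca
Irf2 (chr8:46739495-46739744, plus strand): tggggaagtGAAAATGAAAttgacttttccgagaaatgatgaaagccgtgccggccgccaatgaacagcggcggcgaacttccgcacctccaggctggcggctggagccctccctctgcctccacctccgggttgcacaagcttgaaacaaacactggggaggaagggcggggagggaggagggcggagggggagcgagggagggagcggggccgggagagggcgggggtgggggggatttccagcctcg
Ifit1 (chr19:34640639-34640888, plus strand): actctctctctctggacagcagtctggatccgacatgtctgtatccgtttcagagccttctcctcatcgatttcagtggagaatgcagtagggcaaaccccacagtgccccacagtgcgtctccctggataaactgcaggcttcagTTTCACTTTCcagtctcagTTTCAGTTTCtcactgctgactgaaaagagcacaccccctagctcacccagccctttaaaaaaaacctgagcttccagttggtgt
Copies overlap in Bst2 and Oas1a, each of which holds 2 matches that share a GAAA, and Ifit1 has 2 separate matches. The first base of the match in B2m lies 139 bases before the start and that in Irf2 241 bases before it. Because the 6 genes were picked for the match and by direction, they cannot tell how the element goes with direction. Ifit1 was called in no comparison.

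The arrays fell into their groups. The correlation over all genes was 0.994 for the pair of MEF arrays, 0.970 to 0.990 within NPC and 0.989 to 0.992 within ES cells, against 0.840 to 0.863 across groups, and NPC 1 stood apart from NPC 2 and NPC 3. The labels held against marker genes. The summed intensity of 4 fibroblast genes was 23122 to 23647 on MEF arrays, 31.2 to 63.0 on NPC arrays and 222 to 227 on ES arrays, that of 4 neural precursor genes (among them Sox2, which ES cells also express) was 482 to 492, 10798 to 16808 and 4083 to 4735 in the same order, and that of 4 pluripotency genes was 35.4 to 54.1, 33.5 to 41.7 and 20699 to 21084. Macrophage genes differed between the groups too. The summed intensity of 10 of 10 such genes was 1293 to 1303 on MEF arrays, 123 to 144 on NPC arrays and 647 to 700.1 on ES arrays. Of these 10 genes, 9 were higher in MEF than in NPC, while 7 were higher and 2 (Cd68 and Laptm5) lower in MEF than in ES cells. Cd68 and Laptm5 averaged 8.13 and 8.33 in ES cells and were lower in NPC (-3.31 and -3.70). The other 8 were not called between NPC and ES cells, and the median difference of the 10 was 0.08. On the MEF arrays Lyz2 averaged 8.99 and Adgre1 6.49. Of 5 endothelial genes none was called between MEF and NPC (limma, with 1 at an unadjusted p under 0.05), and Pecam1 alone was called against ES cells, with log2 differences of -2.79 in MEF and -2.85 in NPC. None of 3 measured lymphocyte genes was called in any comparison, though Cd2 stood at -0.94 in MEF and -0.92 in NPC against ES cells. The part of macrophages and of remaining feeder fibroblasts in the results below was not tested.

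Values are log2(intensity + 16) after quantile normalization, and the scale holds for comparing 1 gene between arrays, not different genes. The median of all gene values was 6.06 and their lower quartile 4.64. Calls come from a limma fit of the 8 arrays and need both a log2 difference of 1 or more in size and an adjusted p (Benjamini-Hochberg over all genes) under 0.05. Folds are given on the log2(intensity + 16) scale, which understates those of dim genes. Over the 40 measured members, the median of the group means was 6.52 in MEF, 5.07 in NPC and 6.65 in ES cells. On every array of their group, 13 members in MEF, 26 in NPC and 14 in ES cells lay below the median of all gene values. NPC thus had the most members with a low signal. The map of all members by array shows this as the dark columns of NPC.

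**Figure D1:**
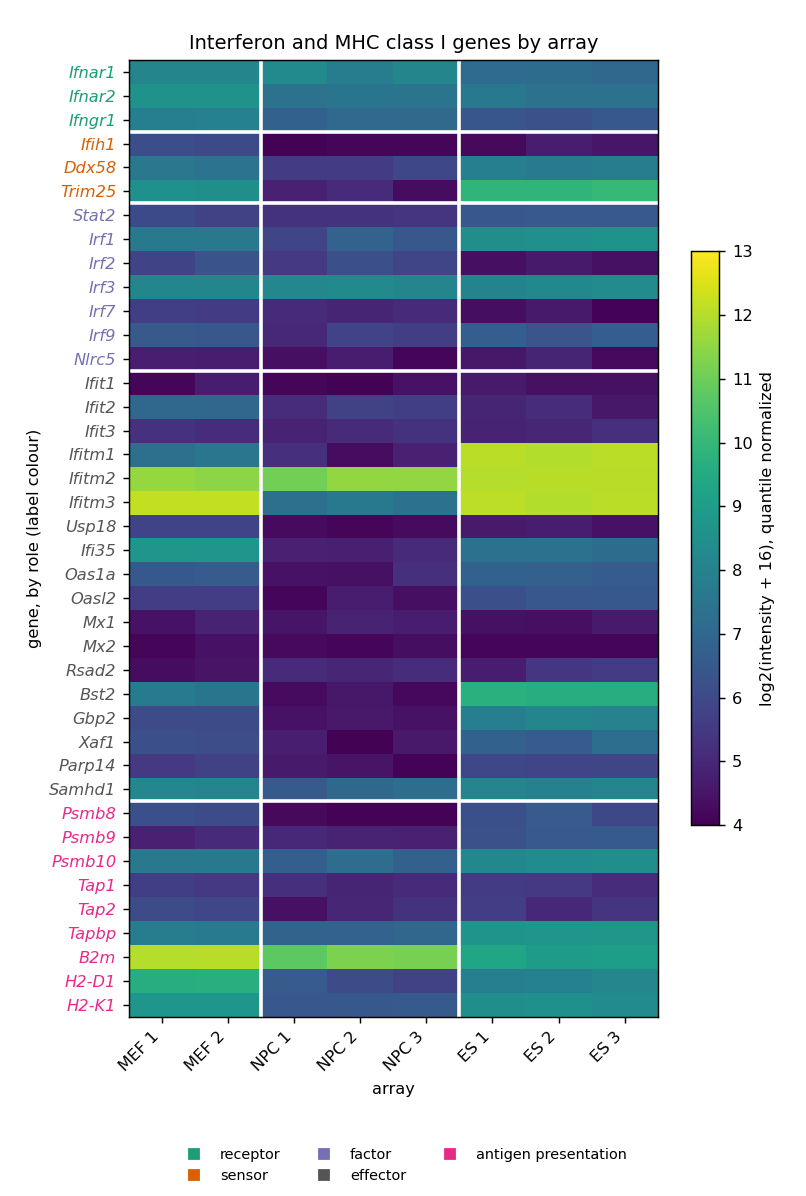
Log2(intensity + 16) of the 40 measured members (rows, grouped and coloured by role) on the 8 arrays (columns), to be read along a row. Most effector and antigen presentation rows are darkest on the 3 NPC arrays, while Ifitm2 and B2m stay bright there.

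The comparison of NPC with ES cells addresses the change of these genes on the way to a neural fate. Of the 40 members, 21 were lower in NPC (52.5%, against 12.9% of all genes) and 2 were higher (5%, against 10.0% of all genes), and 17 were not called. The median log2 difference of the members was -1.10, against -0.05 over all genes. Without NPC 1, 19 members were lower and 2 higher. Lower were 2 of 3 sensor genes, 10 of 18 effectors and 6 of 9 antigen presentation genes. Among the factors 3 of 7 were lower, and among the receptors 0 of 3.

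**Figure D2:**
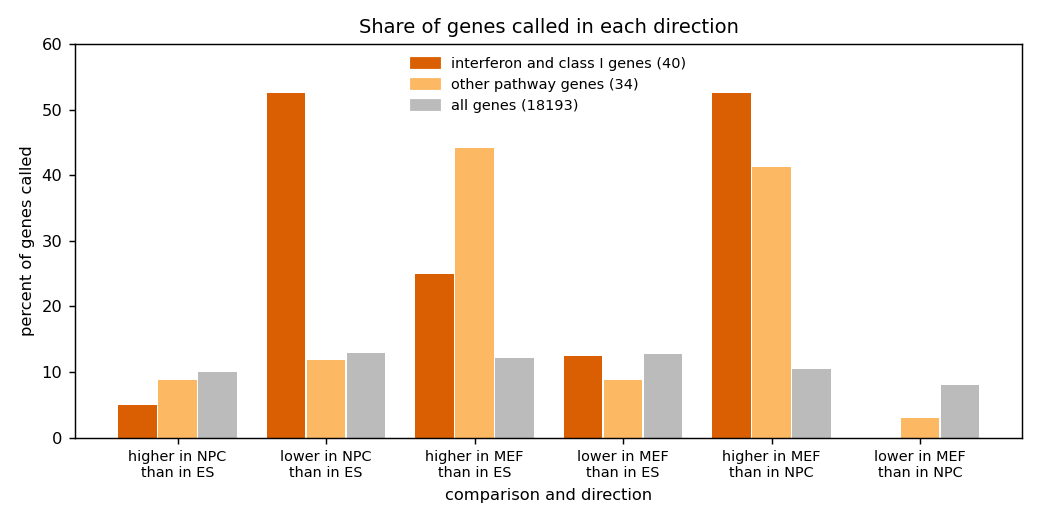
Percent of genes called higher or lower in each comparison (bars start at 0), for the 40 members, 34 other pathway genes and all 18193 genes. Members lower in NPC than ES cells and higher in MEF than in NPC reach 52.5% each, against 12.9% and 10.5% of all genes.

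Among the receptors, none was called between NPC and ES cells (limma, with 2 of 3 higher at an unadjusted p under 0.05). Ifnar1, a chain of the type I interferon receptor, was at 8.30, 7.81 and 8.13 on the NPC arrays, against 7.16, 7.16 and 7.06 on the ES arrays. The groups did not overlap, and its log2 difference of 0.96 ± 0.13 (SE, adjusted p = 0.000277) fell just short of the minimum of 1, whereas the gene was called without NPC 2 (1.09) and with a pseudocount of 1 (1.04). The difference was smaller without NPC 1 (0.85), with a pseudocount of 64 (0.77) and with averaged probe sets (0.75). The other probe set of Ifnar1 gave 0.55. Ifnar2, the partner chain, averaged 7.44 ± 0.04 in NPC and 7.47 ± 0.15 in ES cells (SD, n = 3 each). Its probe sets disagreed: both further ones were higher in NPC, at 1.27 and 1.02, and averaging all gave 0.75 (limma, adjusted p = 0.00203), which is below the minimum. Ifngr1, the ligand-binding chain of the interferon gamma receptor, averaged 6.99 ± 0.19 in NPC and 6.38 ± 0.13 in ES cells, a log2 difference of 0.62.

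Among the 3 genes counted as sensors, Ddx58 and Trim25 fell (66.7%, against 12.9% of all genes). Trim25, a ubiquitin ligase that acts on RIG-I, was at 4.83, 5.11 and 4.28 on the NPC arrays, against 9.87, 9.88 and 10.04 on the ES arrays. The NPC values lie near the lower quartile of all genes and far below every ES value. The log2 difference was -5.19 ± 0.19 (SE, adjusted p = 6.95e-08), 36.5-fold lower in NPC, and both further probe sets of the gene were lower as well, at -4.88 and -2.68. Ddx58, which encodes RIG-I, was at 5.58, 5.57 and 5.93 on the NPC arrays, against 7.87, 7.76 and 7.82 on the ES arrays. Its log2 difference was -2.12 (adjusted p = 2.42e-06), with -1.09 and 0.05 for its dimmer probe sets. Ifih1, which encodes MDA5, averaged 4.12 ± 0.05 in NPC and 4.49 ± 0.23 in ES cells, both under the lower quartile of all gene values, and was called lower in NPC with a pseudocount of 1 (-1.56).

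The transcription factors divided. Irf1, an activator of interferon and class I genes, was at 5.89, 6.83 and 6.44 on the NPC arrays, against 8.50, 8.53 and 8.61 on the ES arrays, with a log2 difference of -2.16 ± 0.21 (SE, adjusted p = 2.6e-05). Irf2, which opposes IRF1 at the same elements, went the other way, at 5.49, 6.18 and 5.89 against 4.38, 4.65 and 4.39. The groups of neither gene overlap, and Irf2 was 2.61-fold higher in NPC (adjusted p = 0.000613). Stat2 fell by 1.14 and Irf9, its partner in the interferon-activated complex, by 1.08. The call of Irf9 ended without NPC 1 (-0.85), with array weights (-0.91), and with median centring (-0.99) or scaling to a trimmed mean, where it fell just short of the minimum. That of Stat2 ended when its probe sets were averaged (-0.92). Irf3, which switches on interferon genes after sensing, was called in no comparison, at 8.20 ± 0.10 in NPC and 8.20 ± 0.14 in ES cells. Irf7, which amplifies the response, averaged 5.02 ± 0.07 in NPC and 4.36 ± 0.28 in ES cells, a log2 difference of 0.66, and was called with a pseudocount of 1 (1.86). Nlrc5, the transactivator of class I genes, averaged 4.40 ± 0.28 in NPC and 4.58 ± 0.34 in ES cells.

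Of the 18 measured effectors, 10 fell in NPC (55.6%, against 12.9% of all genes) and none rose (limma, with 1 higher at an unadjusted p under 0.05). Ifitm1, a membrane protein that restricts virus entry and also marks mouse primordial germ cells, was at 5.26, 4.30 and 4.84 on the NPC arrays, against 12.05, 11.96 and 12.07 on the ES arrays. All NPC values lie near the bottom of the range and all ES values near the top. The log2 difference of -7.23 ± 0.21 (SE, adjusted p = 1.74e-08) was the largest among the members, 150.1-fold lower in NPC.

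The neighbouring genes of the family differed from it. Ifitm3 was at 7.32, 7.62 and 7.39 on the NPC arrays, against 12.11, 11.97 and 12.05 on the ES arrays, 24.2-fold lower (-4.60, adjusted p = 3.12e-09), so that it kept a signal above the median of all gene values in NPC. Ifitm2 was at 11.07, 11.54 and 11.55 on the NPC arrays, against 11.99, 12.02 and 12.05 on the ES arrays, a log2 difference of -0.63 that was too small to be called. The windows of Ifitm2 and Ifitm3 hold GAAANNGAAA, and that of Ifitm1 holds neither element searched.

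Bst2, which encodes tetherin and holds budding virus at the cell surface, was at 4.26, 4.59 and 4.21 on the NPC arrays, against 9.73, 9.59 and 9.60 on the ES arrays. It was 39.1-fold lower in NPC (-5.29 ± 0.14, SE, adjusted p = 9.84e-09), with no overlap of the groups. Gbp2, a GTPase of the guanylate-binding family, was at 4.43, 4.60 and 4.43 against 7.86, 8.10 and 7.98, 11.3-fold lower. The other lower effectors were Xaf1 (-2.41), Ifi35 (-2.40), the oligoadenylate synthetase gene Oas1a (-2.03), its relative Oasl2 (-1.96), the ADP-ribosyltransferase gene Parp14 (-1.49) and Samhd1 (-1.12), whose product breaks down deoxynucleotides. The call of Samhd1 ended without NPC 1 and with array weights (-0.94 each). It also ended when its 5 probe sets were averaged (-0.25), as did that of Parp14 (-0.67).

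Several classical interferon-induced genes were near the bottom of the range in every group. Ifit1 averaged 4.22 ± 0.20 in NPC and 4.48 ± 0.15 in ES cells, Ifit3 5.11 ± 0.23 and 5.02 ± 0.19, Mx1 4.71 ± 0.20 and 4.48 ± 0.15, Mx2 4.22 ± 0.11 and 4.14 ± 0.03, and Rsad2, which encodes viperin, 5.06 ± 0.08 and 5.22 ± 0.47 (SD, n = 3 each). IFIT proteins bind foreign RNA and MX proteins are dynamin-like GTPases. None of these 5 genes was called between NPC and ES cells (limma, with 0 at an unadjusted p under 0.05), and their signals leave little room to show a fall.

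Of the 9 measured antigen presentation genes, 6 fell in NPC (66.7%, against 12.9% of all genes) and B2m rose. B2m, the light chain of every class I molecule, was at 10.74, 11.22 and 11.15 in NPC, against 8.97 to 9.32 in ES cells, 3.85-fold higher (1.94 ± 0.14, SE, adjusted p = 3.79e-06), and its second probe set gave 1.87. The heavy chain gene H2-K1 was at 6.46, 6.47 and 6.56 against 8.50, 8.52 and 8.36, 3.9-fold lower (-1.96, adjusted p = 3.64e-07). The other heavy chain gene, H2-D1, was at 6.58, 6.09 and 5.77 against 7.87, 7.95 and 8.16, 3.6-fold lower (-1.85, adjusted p = 4.18e-05). Light and heavy chain genes thus differed in opposite directions, each without overlap of the groups. Class I heavy chain genes are near-identical in sequence and both are read from probe sets that may share it: the call of H2-D1 ended when its 9 probe sets were averaged (-0.66) and with its probe sets of unshared sequence (-0.56), and no such probe set was at hand for H2-K1, whose 4 gave -2.08 to 0.08.

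The immunoproteasome subunit genes fell together. Psmb8 was at 4.23, 4.08 and 4.08 on the NPC arrays, against 6.21, 6.57 and 5.95 on the ES arrays (-2.12, limma, adjusted p = 1.48e-05). Its second probe set, dim in both groups at means of 4.32 and 4.38, gave -0.07. Psmb9 fell by 1.49 and Psmb10 by 1.43, and Tapbp, which encodes tapasin, by 1.80. The transporter genes did not pass: Tap1 averaged 5.09 ± 0.15 in NPC and 5.42 ± 0.24 in ES cells, and Tap2 4.90 ± 0.45 and 5.35 ± 0.31. Psmb9 and Tap1 lie head to head on chromosome 17, and their promoter windows on opposite strands share 275 of 300 bases.

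**Figure D3:**
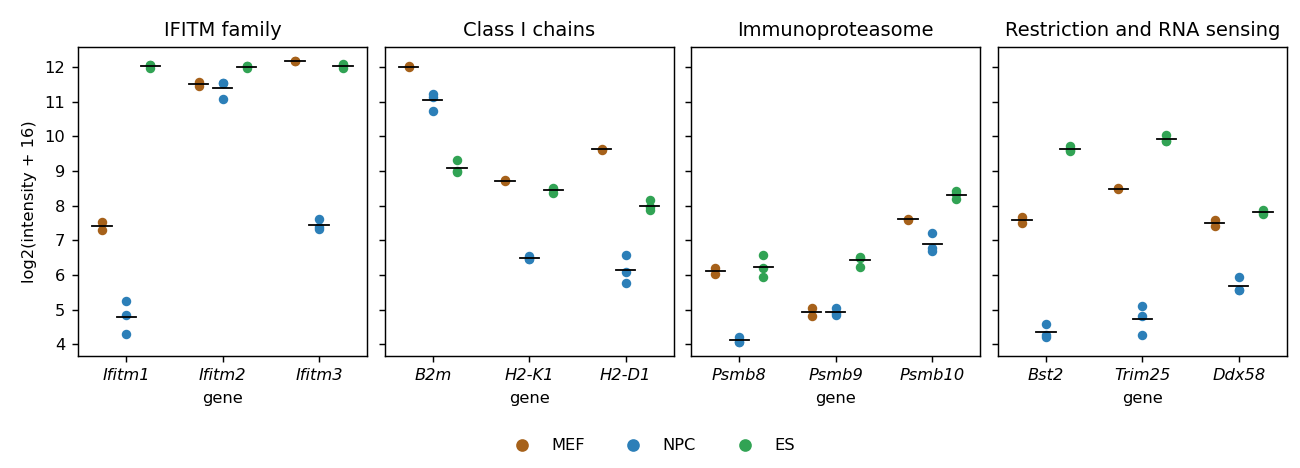
Log2(intensity + 16) of 12 members on each array (points) with group means (black lines), for MEF, NPC and ES cells, to be compared within a gene. Ifitm1 is highest in ES cells, Ifitm3 is near 12 in MEF and ES cells, Ifitm2 is above 11 on every array, and B2m is higher in NPC than in ES cells while H2-K1 and H2-D1 are lower.

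Some calls of this comparison depended on the pseudocount. With 64 in place of 16, the calls of Psmb8 (-0.93), Oasl2 (-0.92), Samhd1 (-0.88), Psmb9 (-0.78), Stat2 and Parp14 (-0.64 each), Irf9 (-0.62) and Irf2 (0.60) ended, and 14 members were lower and 1 higher.

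Other genes of the pathway, taken from a list of 40 of which 34 were measured, did not share the fall. In NPC 4 of them were lower (11.8%, near the 12.9% of all genes) and 3 higher (8.82%, near the 10.0% of all genes), with a median of -0.05. Sting1, the adaptor through which cytosolic DNA is signalled, was at 8.94, 9.62 and 9.79 on the NPC arrays, against 5.44, 5.18 and 5.24 on the ES arrays, 18-fold higher (4.17, adjusted p = 3.71e-07). Ifi27 rose by 1.73 and the receptor kinase gene Jak2 by 1.44. Socs3, an inhibitor of cytokine signalling, was 25.4-fold lower (-4.66), the GTPase gene Igtp 4.2-fold and Zbp1, a sensor of Z-form nucleic acid, 3.19-fold lower.

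MEF were next compared with ES cells, a connective tissue cell with a pluripotent cell. Of the 40 members, 10 were higher in MEF (25%, against 12.2% of all genes) and 5 lower (12.5%, near the 12.8% of all genes), and the median log2 difference was 0.03, against -0.04 over all genes. The members therefore did not move one way. Of the 10 macrophage genes, 7 were higher and 2 lower in MEF than in ES cells. Their part in the calls of the members was not tested.

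Receptors and a sensor were on the higher side. Ifngr1 was at 7.90 and 7.95 on the MEF arrays, against 6.42, 6.23 and 6.47 on the ES arrays, 2.92-fold higher (adjusted p = 3.52e-05). Ifnar2 rose by 1.16, a call that ended with a pseudocount of 64 (0.97). Ifnar1 stood at a log2 difference of 0.97, short of the minimum, and passed at the deposited scaling (1.80), with median centring (1.47), with a pseudocount of 1 (1.06) and when scaled to a trimmed mean (1.04). Its other probe set was at -0.43, and averaging both gave 0.27. Ifih1 was at 6.18 and 6.01 on the MEF arrays, against 4.24, 4.70 and 4.53 on the ES arrays, 3.04-fold higher (adjusted p = 5.12e-05). Trim25 was lower in MEF, at 8.51 and 8.49 against 9.87, 9.88 and 10.04 (-1.43), and this call ended with the deposited scaling (-0.62), median centring (-0.95) and averaged probe sets (-0.99). Ddx58 was not called (-0.30).

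Among the 7 factors, Irf2 (1.61) and Irf7 (1.27) were higher in MEF (28.6%, against 12.2% of all genes). None was lower, against 12.8% of all genes (limma, with 2 lower at an unadjusted p under 0.05). Irf2 was at 5.85 and 6.31 on the MEF arrays, against 4.38 to 4.65 on the ES arrays, and Irf7 at 5.66 and 5.59 against 4.10 to 4.65. Both genes are dim, and with a pseudocount of 64 the values were 0.73 and 0.51. Irf1 stood at -0.91, Stat2 at -0.59 and Irf9 at -0.09.

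The effectors were split. Ifit2, an RNA-binding protein gene, was at 7.01 and 6.97 on the MEF arrays, against 4.94, 5.13 and 4.58 on the ES arrays, 4.31-fold higher (2.11 ± 0.24, SE, adjusted p = 8.37e-05), although its neighbours in the family, Ifit1 (-0.04) and Ifit3 (0.19), were not called. Ifi35 rose by 1.46, and Usp18, which removes ISG15 from proteins and damps interferon receptor signalling, by 1.22. Ifitm1 was at 7.31 and 7.52 on the MEF arrays, against 11.96 to 12.07 on the ES arrays, 24.5-fold lower, and Bst2 was at 7.67 and 7.51 against 9.59 to 9.73, 4.14-fold lower. Gbp2 was 3.77-fold lower. Ifitm3 was at 12.17 and 12.18 on the MEF arrays, against 12.11, 11.97 and 12.05 on the ES arrays, a log2 difference of 0.13 that was not called and turned to -0.02 when arrays were scaled to a trimmed mean. Over all alternatives it reached at most 0.78 and was never called.

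In antigen presentation, B2m was at 12.00 and 12.04 on the MEF arrays, against 8.97 to 9.32 on the ES arrays, 7.57-fold higher (2.92 ± 0.16, SE, adjusted p = 7.64e-07). H2-D1 was at 9.61 and 9.65 against 7.87, 7.95 and 8.16, 3.11-fold higher (adjusted p = 0.000195), and this call ended with averaged probe sets (0.59) and with its probe sets of unshared sequence (0.77). H2-K1, at 8.74 and 8.71 against 8.50, 8.52 and 8.36, was not called (0.27), except at the deposited scaling (1.10). Psmb9 was at 4.83 and 5.06 on the MEF arrays, against 6.23, 6.50 and 6.54 on the ES arrays, 2.78-fold lower. Psmb10 (-0.70, adjusted p = 0.00685) and Psmb8 (-0.12) were not called. Tapbp stood at -0.96, just short of the minimum, and was called without MEF 1 and with a pseudocount of 1 (-1.02 each), but was at -0.47 with median centring, -0.44 with averaged probe sets and -0.15 at the deposited scaling.

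With a pseudocount of 64 the calls of Ifih1 (0.73), Usp18 (0.53) and Psmb9 (-0.77) ended as well, which left 5 members higher and 4 lower. Rsad2 was at 4.30 and 4.46 on the MEF arrays, against 4.68, 5.41 and 5.57 on the ES arrays (-0.84), and was called without ES 1 (-1.11) and with a pseudocount of 1 (-1.89). Of the other pathway genes 15 of 34 were higher in MEF (44.1%, against 12.2% of all genes) and 3 lower (8.82%, against 12.8% of all genes). Ifi27 was 10.9-fold higher, Ifngr2, the second chain of the interferon gamma receptor, 9.08-fold, and Sting1 7.87-fold higher, while Socs3 fell by 2.59, Zbp1 by 1.79 and the proteasome activator gene Psme1 by 1.32.

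The comparison of MEF with NPC sets both lineage-restricted cell types side by side. It shares the NPC arrays with the first comparison and the MEF arrays with the second. Of the 40 members, 21 were higher in MEF (52.5%, against 10.5% of all genes) and none was lower (against 7.95% of all genes; limma, with 1 lower at an unadjusted p under 0.05). The median log2 difference was 1.15, against -0.01 over all genes. Of the 10 macrophage genes, 9 were higher in MEF.

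All 3 genes counted as sensors were higher in MEF (100%, against 10.5% of all genes). These were the ligase gene Trim25 (3.76), Ifih1 (1.97) and Ddx58 (1.82), as log2 differences. Trim25 was at 8.51 and 8.49 on the MEF arrays, against 4.83, 5.11 and 4.28 on the NPC arrays, 13.5-fold higher (adjusted p = 1.49e-06). The call of Ddx58 ended with averaged probe sets (0.92) and that of Ifih1 with a pseudocount of 64 (0.84). Among receptors, Ifnar2 was 2.28-fold higher (0.90 and not called with averaged probe sets), Ifngr1 stood at 0.93 and Ifnar1 at 0.01. Ifngr1 passed with median centring (1.42), the deposited scaling (1.76) and a pseudocount of 1 (1.02).

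Irf1 alone of the 7 factors was called (14.3%, near the 10.5% of all genes). It was at 7.63 and 7.65 on the MEF arrays, against 5.89, 6.83 and 6.44 on the NPC arrays (1.26, limma, adjusted p = 0.00223). Its call ended with a pseudocount of 64 (0.90). Irf9 stood at 0.99 and was called without NPC 2 (1.14), without NPC 3 (1.07), with the replicate number as a block (1.06), at the deposited scaling (1.58), with a pseudocount of 1 (1.34) and with median centring (1.24). Stat2 (0.55) and Irf7 (0.61) passed at the deposited scaling, just over the minimum.

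Of the 18 effectors, 12 were higher in MEF (66.7%, against 10.5% of all genes). Ifitm3 was at 12.17 and 12.18 on the MEF arrays, against 7.32, 7.62 and 7.39 on the NPC arrays, 26.6-fold higher (4.73 ± 0.10, SE, adjusted p = 6.18e-09). Ifi35, which is induced by interferon, was at 8.77 and 8.74 against 4.83, 4.79 and 5.08, 14.5-fold higher, and its further probe sets gave 2.79 and 3.04. Bst2 was 9.45-fold and Ifitm1 6.14-fold higher. The others called were Oas1a (1.86), Xaf1 (1.68), Usp18 (1.60), Gbp2 (1.58), Ifit2 (1.46), Oasl2 (1.23), Samhd1 (1.22) and Parp14 (1.20). Ifitm2 was not called, at 11.51 ± 0.09 in MEF (SD, n = 2) and 11.39 ± 0.28 in NPC (n = 3). With a pseudocount of 64 the calls of Oas1a, Xaf1, Usp18, Gbp2, Ifit2, Oasl2, Samhd1 and Parp14 ended (0.48 to 0.96), and averaging the probe sets ended those of Samhd1 (0.74) and Parp14 (0.78).

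In antigen presentation, 4 of 9 were higher in MEF (44.4%, against 10.5% of all genes). H2-D1 was at 9.61 and 9.65 on the MEF arrays, against 6.58, 6.09 and 5.77 on the NPC arrays, 11.2-fold higher (adjusted p = 2.5e-06), and H2-K1 at 8.74 and 8.71 against 6.46, 6.47 and 6.56, 4.69-fold higher (adjusted p = 5.55e-07). Both calls held when the probe sets of each gene were averaged. Psmb8 was 3.98-fold higher, a call that ended with a pseudocount of 64 (0.85), and its second probe set gave 0.50. Tap2 was at 6.09 and 5.93 against 4.42, 4.98 and 5.30 (1.11, adjusted p = 0.0118), and this call rests on few arrays: it ended without NPC 1 (0.87), without MEF 1 (1.03, adjusted p = 0.0867), without MEF 2 (1.19, adjusted p = 0.0545), with array weights (0.87), with scaling to a trimmed mean (0.99) and with a pseudocount of 64 (0.52). B2m stood at 0.98 and was called without NPC 2 (1.07), without NPC 3 (1.04), at the deposited scaling (1.79) and with median centring (1.44). Psmb9 was not called, at 4.94 ± 0.16 in MEF (n = 2) and 4.93 ± 0.10 in NPC (n = 3). Psmb10 (0.73) and Tapbp (0.84) passed at the deposited scaling (1.54 and 1.67) and with median centring (1.2 and 1.32), and Tapbp also with averaged probe sets (1.11).

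**Figure D4:**
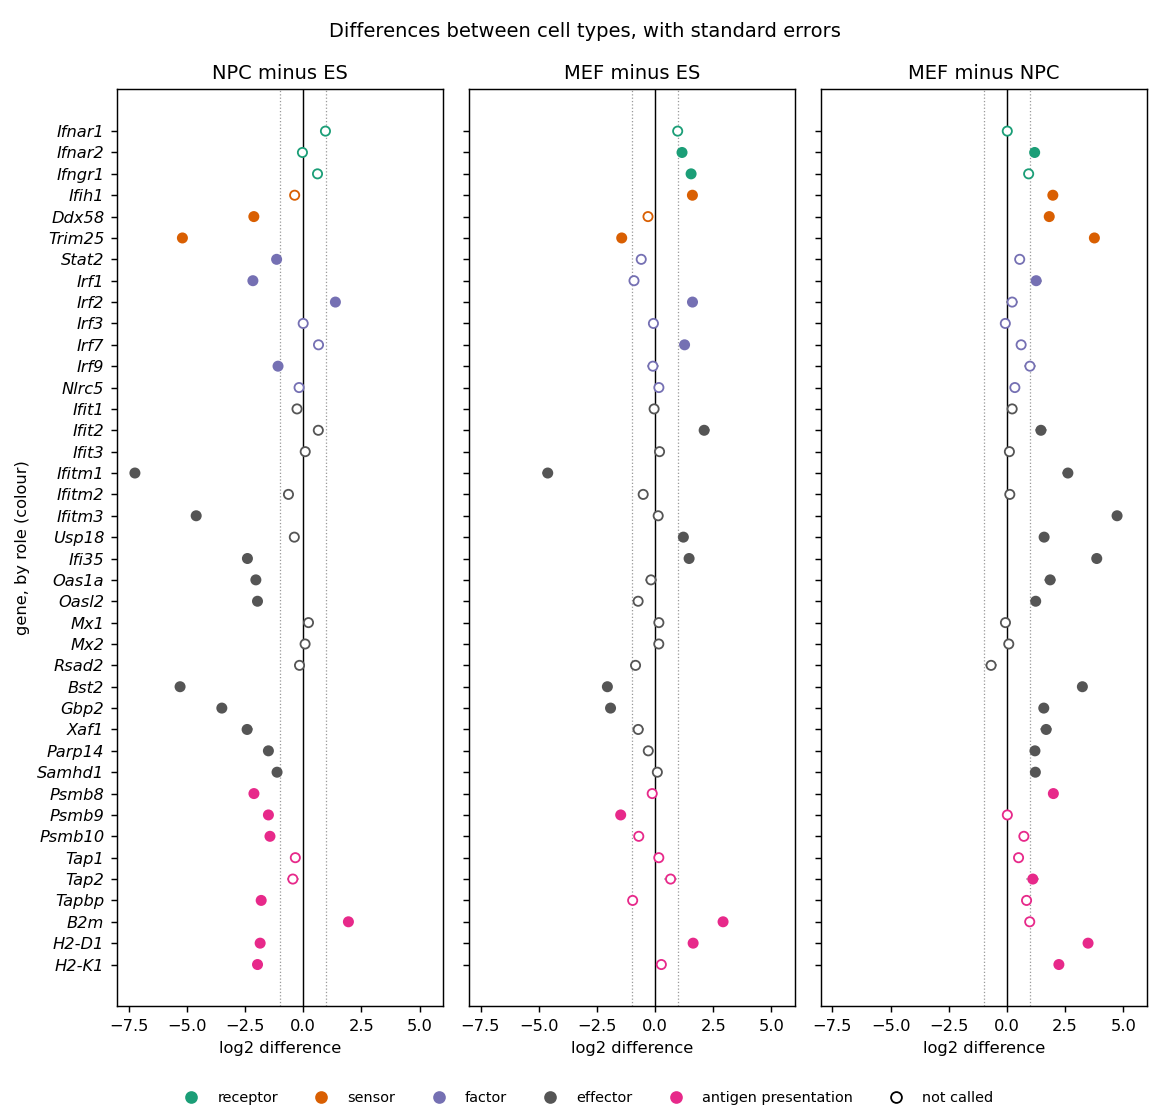
Log2 differences of the 40 members (rows, coloured by role) in the 3 comparisons, with filled points for called genes, open points for the others and dotted lines at the minimum of 1. Standard errors are drawn and mostly lie within the points. In the NPC minus ES panel the filled points lie left of 0 except for those of Irf2 and B2m, and no filled point of the MEF minus NPC panel lies left of 0.

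Of the other pathway genes 14 of 34 were higher in MEF than in NPC (41.2%, against 10.5% of all genes) and 1 lower (2.94%, against 7.95% of all genes). The immunity-related GTPase gene Irgm1 was 9.76-fold, Ifngr2 5.31-fold and Socs3 4.22-fold higher, and Sting1 was 2.28-fold lower.

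Within groups, the members varied most in NPC. The median SD of a member was 0.06 among the 2 MEF arrays, 0.21 among the NPC arrays and 0.14 among the ES arrays. The largest were those of Ifit1 in MEF (0.40), Ifitm1 in NPC (0.48) and Rsad2 in ES cells (0.47), each at a mean below the median of all gene values. Among 30 called results for which the gene had further probe sets, these lay on one side of 0 with the reported one in 22, and in no case was a further probe set at 1 or more in the opposite direction. The median ratio of observed to expected CpG was 0.26 over 16 effector windows (0.06 to 0.91), 0.56 over 10 of antigen presentation (0.19 to 0.68), 0.69 over 8 of factors (0.05 to 1.02), 0.71 over 3 of sensors and 0.75 over 3 of receptors, against 0.38 over all windows. These ranges overlap, and the roles were not tested against each other.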

How the data were processed

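The values analysed are the authors' deposited probe set intensity, linear, 1 column per array. The submitters' processing notes list GCOS 1.4. How it corrected background and scaled the arrays is not given in the sources used here, and no detection calls were used. Of 45101 probe sets, 64 controls were left out, and 34945 were listed with a single gene in GEO's platform annotation, 932 with several and 9160 with none. Array medians ran from 19.1 to 31.5, with both MEF arrays brightest. After log2(intensity + 16), arrays were quantile normalized, and each gene was read from its brightest probe set. Groups were compared with limma 3.58.1 in R 4.3.3, fitting all 8 arrays at once with a trended variance, since MEF have 2 arrays only, and adjusting over all 18193 genes by Benjamini-Hochberg. The procedure was tested on simulated data. Depth has no measure on arrays; their number limits the precision. The members and lists were chosen with earlier results of these data known. Every member could be named. Of the other pathway genes, the called ones among the 3 highest and 3 lowest differences of a comparison were named. The alternatives tried were other scalings, pseudocounts of 1 and 64, leaving out the dimmest 30% of genes, the mean of probe sets and leaving out shared sequence. Further ones were other variance models and thresholds, array weights, the compared groups alone, a replicate block and leaving out each array. Shared sequence stands for the suffixes _x_at, _s_at and _a_at, whether it is shared with other genes or between transcripts of 1 gene. Promoter sequences are from RefSeq, GRCm38.p6.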

Additional observations from a re-analysis of the deposited data

How the results depend on the processing

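Of 59 called results of members, 28 kept their call and direction at the same thresholds under every alternative in which the gene was tested, 31 lost the call under at least 1, of which 19 under a pseudocount of 64 alone, and none changed direction. Of 61 results not called, 18 were called under at least 1 of these. Other minimum differences are left out of these counts. The members higher in NPC than in ES cells numbered 2, and 5 with a pseudocount of 1 and 1 with 64. Without shared sequence they numbered 0 of 28, but B2m and Irf2 were not among the 28, so their rises were not tested there. They numbered 6 with no minimum difference and 0 with a minimum of 2 (limma). With that minimum, 11 were lower in NPC than ES cells, 2 higher and 2 lower in MEF than ES cells, and 7 higher in MEF than in NPC. Members higher in MEF than in ES cells numbered 5 each with a pseudocount of 64 and without shared sequence, and those lower 12 with no minimum. Of the calls still tested without shared sequence, only those of H2-D1 against ES cells (in NPC and in MEF) ended. Members higher in MEF than in NPC numbered 9 with a pseudocount of 64, and 1 was lower with a pseudocount of 1. Fewer members are tested without shared sequence, and a higher pseudocount shrinks the differences of dim genes by construction; the cause was not tested for the other changes.

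Leaving out each array gave 2 to 3 members higher and 19 to 21 lower in NPC than in ES cells, 10 in every case higher and 5 to 6 lower in MEF than in ES cells, and 20 to 23 higher and 0 lower in MEF than in NPC. Same-numbered arrays of different groups did not deviate together (correlations of -0.02 to 0.02 over 7 pairs). With 2 or 3 arrays per group, this cannot exclude a pairing by replicate number. With the replicate block the counts were 2, 21, 10, 5, 22 and 0 in the same order. At the deposited scaling the median of all genes shifted by 0.32 in MEF against ES cells and by 0.43 in MEF against NPC. There 13 members were higher and 4 lower in MEF than in ES cells, and 28 higher and 0 lower in MEF than in NPC. The share of calls over all genes that were higher in MEF than in ES cells was 48.9%, 79.4% at the deposited scaling and 65.1% after median centring, and over NPC it was 56.9%, 87.6% and 74.2%. Among the called members this share was 66.7%, 76.5% and 73.3% against ES cells, and 100% each time against NPC. Dim signals limit 11 members whose means lay below the median of all gene values in each group.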
